A study of Homo sapiens with 4 samples.

Results

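The genes described here are 8 surface antigens that leukemia therapies aim at, followed by ribosome profiling across 4 human leukemia cell lines. They were taken by gene symbol (CD33, CLEC12A, CD47, CD44, CD38, CD70, HAVCR2 and PTPRC) from 60607 annotated genes, and all 8 were found. Ribosome profiling sequences the short RNA fragments that ribosomes protect from nuclease, here cut with the lysates held in cycloheximide, so a level reflects both the amount of an mRNA and how heavily it is read. No RNA libraries were used here, and the amount of mRNA and its translation cannot be told apart. In cultures measured whole, fewer cells with a transcript and less of it per cell cannot be told apart either.

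The lines were grown without any treatment named in the labels. They were K562 (from a chronic myeloid leukemia, with erythroid features), THP-1 and MOLM13 (monocytic acute leukemias) and HL60 (an acute myeloid leukemia). Each line had 1 library, so differences have no replicate check, no p-value was computed, and the intervals given are 95% Poisson or binomial intervals that cover counting error only. The files held 473 aligned megabases for K562, 678 for THP-1, 344 for the MOLM13-labelled library and 973 for HL60. The most common fragment was 29 bases, and aligned bases divided by 29 are called footprint equivalents. Levels are given as scaled TPM, the deposited TPM (a length-corrected share of a library) summed over a gene's transcripts and divided by 1 factor per library.

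The MOLM13-labelled library went against its label in its monocytic and T cell markers, and its deposited file carries another name, so it is called by its label throughout. The 8 monocytic markers summed to 35.1 scaled TPM in that library, against 4267 in THP-1 and 775 in HL60. The 7 T and NK cell markers summed to 982 scaled TPM there, against 12.6 to 52.7 in the other lines, and CD3D alone stood at 891. In that library CD247 stood at 39.4, NKG7 at 23.5, CD7 at 16.3 and CD3E at 12.4, with CD3G and CD2 at 0. CD3G had its top level in K562 (3.65) and NKG7 in THP-1 (42.0). CD34, a stem and progenitor antigen, stood at 194 scaled TPM in the MOLM13-labelled library and at no more than 0.427 elsewhere. The 5 markers of KMT2A-rearranged leukemia summed to 56.5 scaled TPM there, with HOXA9 at 29.5, HOXA10 at 16.2, MEF2C at 10.8 and FLT3 and MEIS1 listed at 0, against 124 in THP-1, 38.3 in K562 and 7.35 in HL60. FLT3 and MEIS1 reached no more than 1.83 in any line. The labels give no KMT2A status for any line. The sums of these markers therefore do not set lines with a KMT2A rearrangement against lines without it. In K562, 5 of 7 erythroid markers were high, by the size rule given below, with the embryonic globin HBE1 at 10580 scaled TPM. In THP-1, 6 of the 8 monocytic markers were high, with LYZ at 2769, while CD14 (43.1) and ITGAM (15.5) had their top level in HL60. Of 5 granule markers, MPO at 6359 was high in HL60, and the other 4 had their top level in THP-1. What the identity of the MOLM13-labelled library contributes to the results was not tested.

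Surface antigens suit antibody, engineered T cell and checkpoint therapy because they can be reached from outside the cell. CD33 is a sialic acid-binding lectin with inhibitory tyrosine motifs, and CLEC12A is a C-type lectin-like inhibitory receptor, both of myeloid cells. CD47 is the "do not eat me" ligand of SIRPA on phagocytes, CD44 binds hyaluronan, CD38 hydrolyses NAD, CD70 is the ligand of CD27, HAVCR2 (TIM-3) is an immune checkpoint receptor, and PTPRC (CD45) is the receptor tyrosine phosphatase of nearly all nucleated blood cells. Several of them are made in alternative forms by skipping exons.

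PTPRC is the best known such case, with a run of exons near the start of its coding region that are kept or skipped. Its long form holds all of them and its short form, RO, holds none. Exons 4 and 6, known as A and C, are shown because coverage on them differed between the libraries. The capitals are the exon, and the lower-case letters are 20 bases of the constant exon joined to it in the long transcript. They lie on the plus strand at chr1:198696712-198696909 and chr1:198702387-198702530 (hg38), and were read from GENCODE release 29 transcripts.
PTPRC exon A: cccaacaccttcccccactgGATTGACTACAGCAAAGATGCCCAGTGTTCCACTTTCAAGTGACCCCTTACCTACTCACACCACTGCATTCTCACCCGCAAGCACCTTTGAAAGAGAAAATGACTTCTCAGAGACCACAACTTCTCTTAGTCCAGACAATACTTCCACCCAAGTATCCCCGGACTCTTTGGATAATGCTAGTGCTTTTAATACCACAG
PTPRC exon C: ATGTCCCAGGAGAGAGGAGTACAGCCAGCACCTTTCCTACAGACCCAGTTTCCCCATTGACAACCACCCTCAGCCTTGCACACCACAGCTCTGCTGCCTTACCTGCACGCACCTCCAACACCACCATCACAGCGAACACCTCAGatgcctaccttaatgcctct

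CD47 has a pair of small exons near its stop codon, 25 and 33 bases long, that lengthen the cytoplasmic tail when kept. They lie on the minus strand at chr3:108050578-108050602 and chr3:108049619-108049651 (hg38), and are shown in capitals, with 20 bases of the joined exons on each side in lower case and from the same source, because coverage on them differed between the lines.
CD47 exon 9: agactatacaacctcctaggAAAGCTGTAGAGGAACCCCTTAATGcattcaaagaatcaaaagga
CD47 exon 10: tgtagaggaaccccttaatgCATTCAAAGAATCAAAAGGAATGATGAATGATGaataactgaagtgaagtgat

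A gene was called high in a line when log2(scaled TPM + 1) lay at least 2 above every other line, and low when it lay at least 2 below every other line, with at least 600 aligned bases behind the higher value or values. Of the 32 combinations of a gene and a line, 7 were listed at 0. A listed 0 is not a measured absence, since the ribosomal protein gene RPS27A was also listed at 0 in K562 and HMGB1 in the MOLM13-labelled library. All 8 genes had 600 aligned bases in at least 1 line.

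In THP-1, 1 of the 8 was high (CD70), where 3.15% of the 12582 protein-coding genes with enough bases were high, and in HL60 1 was (CLEC12A), where 1.39% were. None was high in K562 (1.64% of all) or in the MOLM13-labelled library (1.82%). In K562, 2 were low (CD33 and PTPRC), where 3.43% of genes were low. None was low in THP-1 (0.421%), in the MOLM13-labelled library (1.39%) or in HL60 (1.26%). Across lines the 8 genes spanned a median of 4.59 on the log2 scale, against 1.57 for all genes tested. Without the MOLM13-labelled library, 5 of the 8 were called, where 19.0% of 12276 genes were. CD38 was then high in THP-1 besides CD70 (4.28% of all genes), CLEC12A was high in HL60 (2.12%), and CLEC12A was low in K562 beside CD33 and PTPRC (6.88%).

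**Figure D1:**
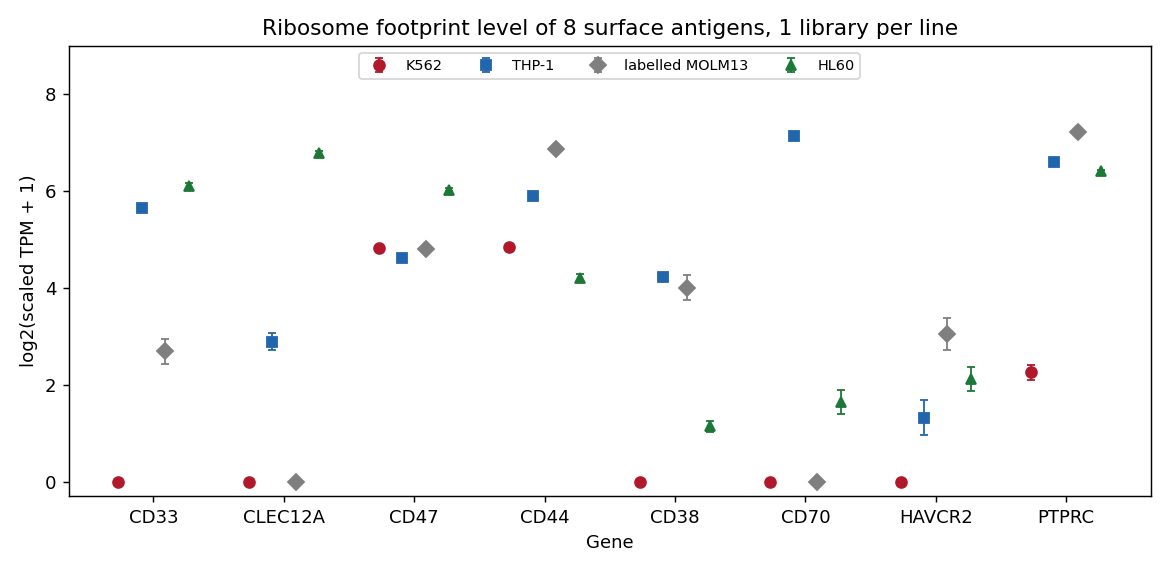
Level of each antigen, as log2(scaled TPM + 1), in the 4 libraries, with bars for the 95% Poisson counting interval (none at a listed 0). CD47 lies within 1.42 log2 units across the lines, while CD70 reaches 7.14 in THP-1 and 0 in K562 and the MOLM13-labelled library.

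The myeloid lectins were highest in HL60. CD33 (ENSG00000105383.15, chr19:51225064-51243860) had 68.3 scaled TPM in HL60, 49.2 in THP-1 and 5.46 in the MOLM13-labelled library, and was listed at 0 in K562. HL60 was thus 1.39-fold above THP-1 (interval 1.31 to 1.48), and THP-1 was 9.01-fold above the MOLM13-labelled library (7.28 to 11.2). CD33 stood in the top 7.25% of protein-coding genes in HL60 and in the top 9.89% in THP-1.

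CLEC12A (ENSG00000172322.14, chr12:9951316-9995694) had 109 scaled TPM in HL60 and 6.44 in THP-1, and was listed at 0 in K562 and in the MOLM13-labelled library. HL60 was 16.9-fold above THP-1 (14.7 to 19.6), from 4164 footprint equivalents in HL60 and 204 in THP-1. Every one of its 6 coding exons was covered in both lines, from 58.1 to 206 per base in HL60 and from 1.34 to 10.2 in THP-1. PTPN6 (SHP-1), a phosphatase that the tyrosine motifs of such receptors recruit, was low in K562, where it was listed at 0, against 82.1 scaled TPM in THP-1, 16.9 in the MOLM13-labelled library and 216 in HL60. It was the 1 of 4 listed partners of CD33 and CLEC12A that was called.

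CD33 exon 2 encodes the outer immunoglobulin domain, and a form without it is known. Its coverage, in aligned bases per base, was 36.9 in THP-1 and 79.8 in HL60, where the other 6 coding exons averaged 33.8 in THP-1 and 62.8 in HL60. The ratio was 1.09 in THP-1 (0.997 to 1.19) and 1.27 in HL60 (1.19 to 1.35), so exon 2 did not lie below the other coding exons in either. The form that skips exon 2 held 2.83% of CD33 TPM in THP-1 and none in HL60. In the MOLM13-labelled library 100% of CD33 TPM, and in HL60 79.5%, was assigned to a transcript annotated as retaining an intron, against 1.85% in THP-1. That transcript fuses exons 1 and 2, and the files give 1 mean for the fused exon, so neither the intron nor exon 2 was resolved by itself there. The exon 2 ratio of HL60 draws on that mean and cannot show how often exon 2 was skipped.

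CD70 was high in THP-1. The gene (ENSG00000125726.11, chr19:6583183-6604103) had 140 scaled TPM in THP-1 and 2.13 in HL60, and was listed at 0 in K562 and in the MOLM13-labelled library. THP-1 was 65.7-fold above HL60 (51.4 to 86.8), where the level in HL60 rested on 61.4 footprint equivalents, and stood in the top 3.96% of protein-coding genes. Its receptor CD27 was listed at 0 in all 4 lines, and neither SIVA1 nor TRAF2, which act inside the cell downstream of CD27, was called high or low.

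CD47 (ENSG00000196776.17, chr3:108043091-108091862) was the antigen that varied least. It stood at 64.4 scaled TPM in HL60, 27.4 in K562, 26.9 in the MOLM13-labelled library and 23.5 in THP-1. HL60 was 2.35-fold above K562 (2.24 to 2.46), while by scaled TPM K562 and the MOLM13-labelled library did not differ beyond counting error (1.02-fold, 0.956 to 1.09). On coding bases K562 was 1.13-fold above the MOLM13-labelled library (1.05 to 1.21), and by deposited TPM it lay below, at 23.0 in K562 against 30.1 in the MOLM13-labelled library, so their order depends on the scale. None of its 4 listed partners was called: SIRPA had between 0 and 4.83 scaled TPM, and QPCTL, the enzyme that modifies the end of CD47 bound by SIRPA, was listed at 0 in K562 and in the MOLM13-labelled library, with 8.11 in THP-1 and 5.72 in HL60.

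Of the small tail exons of CD47, exon 10, printed above, had a coverage of 3.52 in THP-1 and 13.3 in HL60, and was at 0 in K562 and in the MOLM13-labelled library. Exon 9 had 16.0 in K562, 22.8 in THP-1, 1.68 in the MOLM13-labelled library and 20.6 in HL60. The transcript holding both exons took 99.96% of CD47 TPM in THP-1 and 12.9% in HL60, against 1.64% in K562 and 0.398% in the MOLM13-labelled library. These exons are about as long as a single footprint, so their coverage is uncertain. Exon 2, which encodes the immunoglobulin domain bound by SIRPA, had the highest coverage of any CD47 exon in THP-1 (118), the MOLM13-labelled library (86.2) and HL60 (587), while exon 5 was highest in K562 (115, against 97.4 on exon 2).

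CD44 (ENSG00000026508.20, chr11:35138882-35232402) stood at 116 scaled TPM in the MOLM13-labelled library, 58.9 in THP-1, 27.7 in K562 and 17.4 in HL60. The MOLM13-labelled library was 1.97-fold above THP-1 (1.87 to 2.07). Counted on coding bases alone the order of these changed: scaled coverage was 37.1 in THP-1 and 34.5 in the MOLM13-labelled library, a ratio of 1.07 (1.01 to 1.14). HL60 was lowest on both scales, at 5.45 scaled coverage. Of 6 listed partners, MMP14, a protease that sheds CD44, was high in THP-1 at 28.2 scaled TPM, and EZR, MSN and RDX, which tie CD44 to actin, were covered in all 4 lines without a call.

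CD44 has 9 variable exons between constant ones, and in all 4 libraries they carried few footprints. Their mean coverage was 2.33 in K562, 4.24 in THP-1, 3.54 in the MOLM13-labelled library and 0.864 in HL60, where the 9 constant exons averaged 38.1 in K562, 76.9 in THP-1, 46.1 in the MOLM13-labelled library and 17.1 in HL60. The ratio of variable to constant exons lay between 0.0505 in HL60 and 0.0769 in the MOLM13-labelled library. In K562, 6 of the 9 were at 0 and exon 10 stood out at 14.8. The transcript assignment read otherwise: 87.8% of CD44 TPM in K562 went to a transcript that contains all 9, and 64.0% in the MOLM13-labelled library to another coding transcript, while 65.9% in THP-1 went to the standard form without them. Transcripts annotated as retaining an intron held 51.3% of CD44 TPM in HL60 and 30.6% in the MOLM13-labelled library. They held 23.5% in THP-1 and 5.94% in K562.

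**Figure D2:**
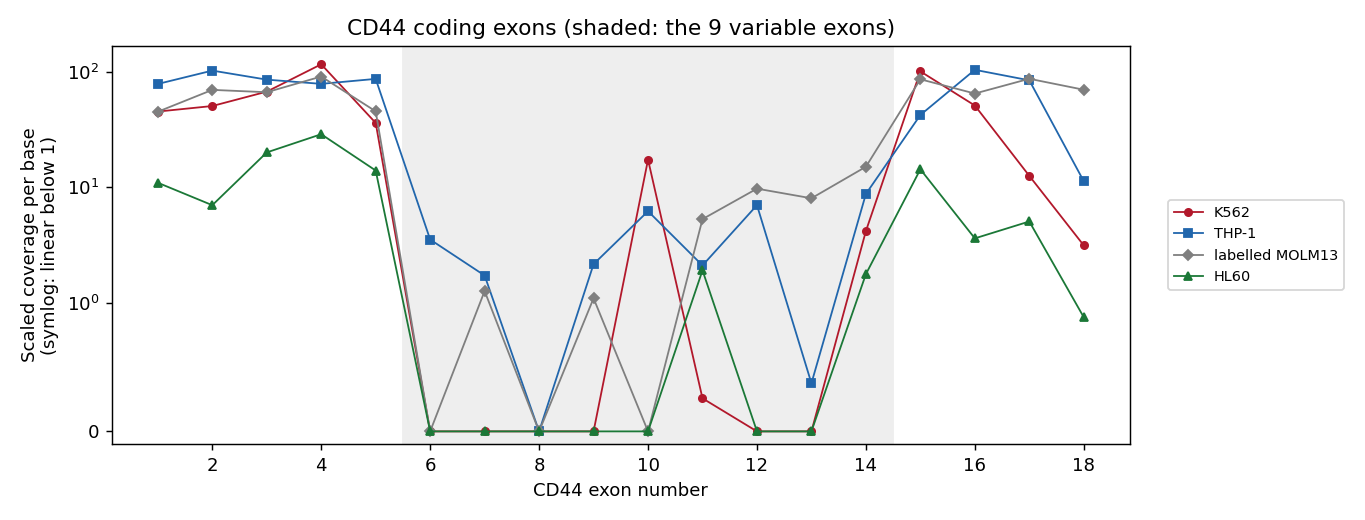
Scaled coverage per base of the 18 coding exons of CD44 in each library, on an axis that is linear below 1 and logarithmic above. The shaded variable exons lie below both flanking constant exons, 5 and 15, in all 4 libraries, and exon 10 of K562 reaches 17.3.

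CD38 (ENSG00000004468.13, chr4:15778275-15853232) had 17.8 scaled TPM in THP-1, 15.1 in the MOLM13-labelled library and 1.21 in HL60, and was listed at 0 in K562. By TPM, THP-1 and the MOLM13-labelled library did not differ beyond counting error (1.17-fold, 0.972 to 1.44). Those levels rested on 1790 footprint equivalents in THP-1 and 112 in the MOLM13-labelled library. In the MOLM13-labelled library 98.6% of the TPM sat on a transcript of 594 bases annotated as retaining an intron, and 5 of the 8 coding exons were at 0.

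On coding bases CD38 was highest in THP-1. Scaled coverage was 45.9 in THP-1, 3.24 in the MOLM13-labelled library and 3.17 in HL60, so THP-1 stood 14.2-fold above the MOLM13-labelled library (11.1 to 18.1). The MOLM13-labelled library and HL60 did not differ beyond counting error (1.02-fold, 0.767 to 1.37). Of 3 listed partners, PECAM1, a ligand of CD38, was high in THP-1 at 129 scaled TPM, as was BST1, its paralog, at 34.4.

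**Figure D3:**
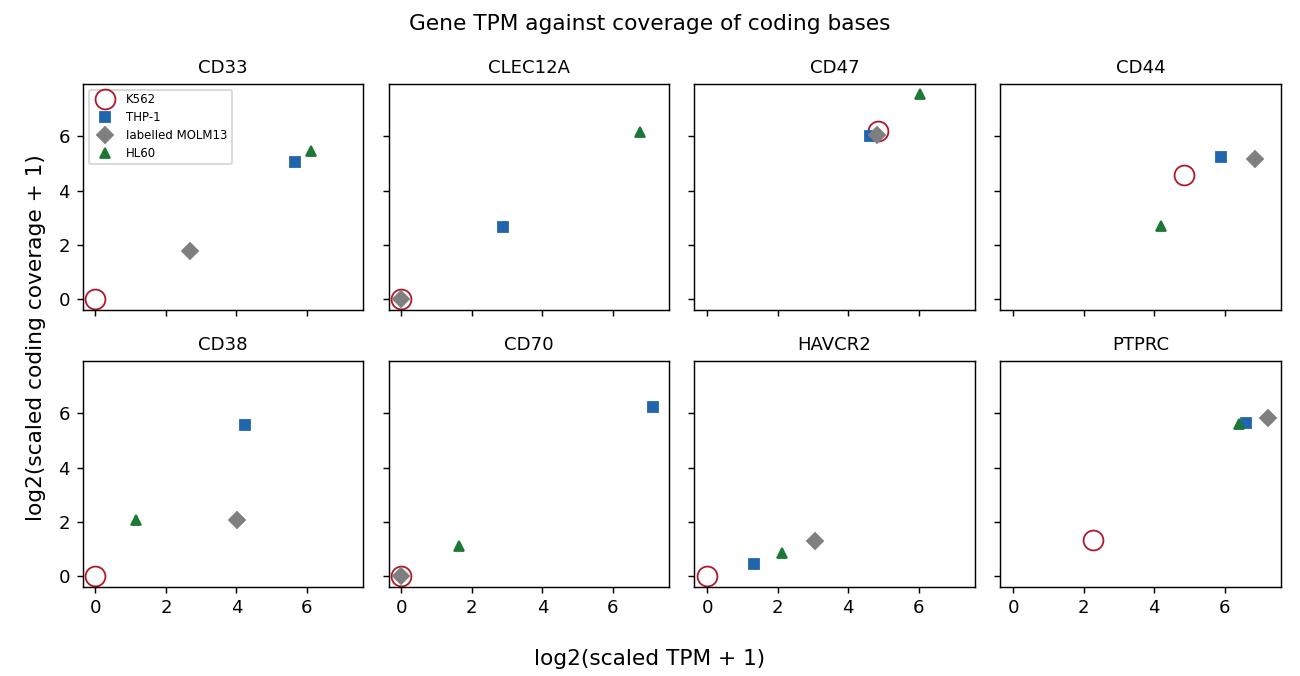
For each antigen, log2(scaled TPM + 1) against log2(scaled coding coverage + 1), 1 point per library. CD38 of the MOLM13-labelled library lies at 4.01 by TPM, close to THP-1 at 4.23, but at 2.08 by coding coverage, against 5.55 in THP-1.

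**Figure D4:**
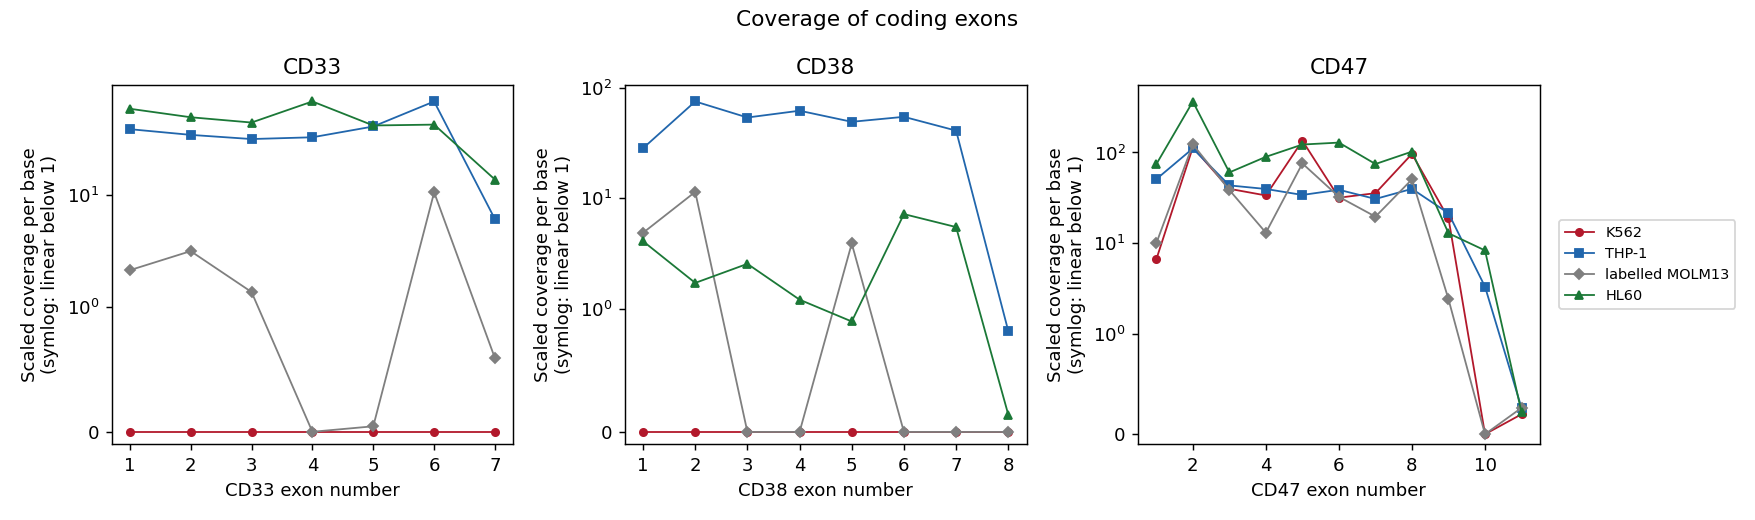
Scaled coverage per base of the coding exons of CD33, CD38 and CD47, on an axis that is linear below 1 and logarithmic above. CD38 of the MOLM13-labelled library is covered on exons 1, 2 and 5 only, and CD47 exon 10 is above 0 in THP-1 and HL60 only.

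HAVCR2 (ENSG00000135077.9, chr5:157085832-157142869) had the lowest top level of the 8 antigens. It was listed at 0 in K562, with 1.49 scaled TPM in THP-1, 7.32 in the MOLM13-labelled library and 3.35 in HL60. These values rested on 24.1 footprint equivalents in THP-1, 60.0 in the MOLM13-labelled library and 86.7 in HL60. Coding coverage was limited to exon 2, which encodes the immunoglobulin domain, and in HL60 also exon 1, and the other coding exons were at 0 in all 4 lines. No TPM was assigned to a coding transcript in any line, and HAVCR2 shares exon bases with MED7 on the same strand, so its level is uncertain. Of its listed ligands, LGALS9 had 82.5 scaled TPM in HL60, 55.8 in THP-1, 0.618 in the MOLM13-labelled library and was listed at 0 in K562, without a call.

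PTPRC (ENSG00000081237.20, chr1:198638457-198757476) stood at 148 scaled TPM in the MOLM13-labelled library, 96.0 in THP-1, 84.1 in HL60 and 3.81 in K562. The level in K562 lay 4.14 log2 units below the next lowest line, and HL60 was 22.1-fold above it (19.3 to 25.3). On coding bases the other 3 lines were close, at 48.8 scaled coverage in THP-1, 55.4 in the MOLM13-labelled library and 47.1 in HL60, against 1.52 in K562. PTPRCAP, which binds PTPRC, was high in HL60 at 111 scaled TPM, LGALS1, a lectin that binds its sugars, was high in THP-1 at 3659, and the kinase LYN was low in HL60, where it was listed at 0.

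The 3 lines with the higher PTPRC levels differed in exons A and C. Exon A, printed above, had a coverage of 7.64 in THP-1, 71.6 in the MOLM13-labelled library and 1.49 in HL60, where the 29 constant coding exons averaged 55.8 in THP-1, 38.5 in the MOLM13-labelled library and 84.6 in HL60. The ratios were 0.137 (0.102 to 0.179) in THP-1, 1.86 (1.70 to 2.03) in the MOLM13-labelled library and 0.0177 (0.00855 to 0.0323) in HL60. In THP-1 and HL60 each of the 29 constant exons was covered more than exon A, while in the MOLM13-labelled library 2 of the 29 were.

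Exon C had ratios of 0.102 (0.0677 to 0.147) in THP-1, 0.648 (0.539 to 0.773) in the MOLM13-labelled library and 0.0222 (0.0104 to 0.0417) in HL60. In THP-1 and HL60 each of the 29 constant exons was covered at least as much as exon C, and in the MOLM13-labelled library 23 of the 29 were, so that exon C, unlike exon A, lay below most constant exons there too. By transcript assignment, the long form took 63.6% of PTPRC TPM in the MOLM13-labelled library, while RO took 76.3% in THP-1 and 86.5% in HL60. In K562 exons A and C were at 0, and so were 12 of the 29 constant exons, from 175 footprint equivalents in all.

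**Figure D5:**
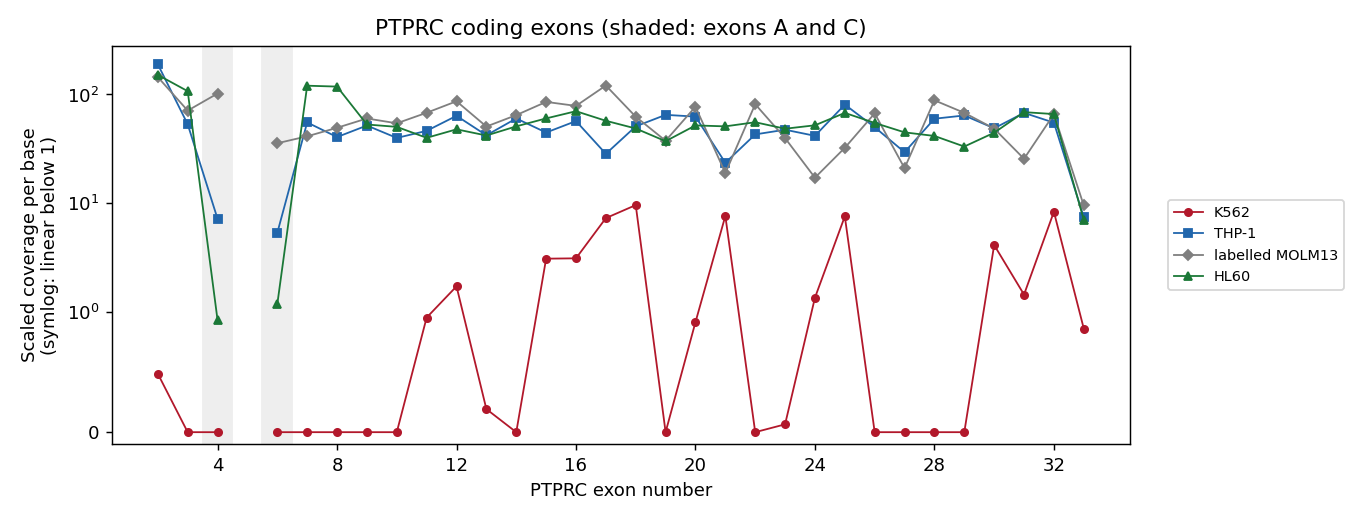
Scaled coverage per base of coding exons of PTPRC in each library, on an axis that is linear below 1 and logarithmic above, with lines broken where an exon is not shown. In shaded exons A and C, THP-1 and HL60 lie below constant exons 3 and 7, while at A the MOLM13-labelled library lies above the other 3.

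Set pair by pair, the antigens differed at least 4-fold in 24 of 48 combinations of a gene and a pair of lines. K562 and THP-1 were apart for 5 of 8, where 18.8% of all genes tested were, K562 and the MOLM13-labelled library for 5 of 8 (13.6%), and K562 and HL60 for 4 of 8 (18.3%). In each of these K562 was the lower line for every antigen counted. Counted on coding bases, CD44 stood at 23.1 scaled coverage in K562 and 34.5 in the MOLM13-labelled library, less than 4-fold apart. CD33 and HAVCR2 also fell short for that pair, at log2(scaled coverage + 1) of 1.77 and 1.31, against 0 in K562. For K562 and HL60, HAVCR2 fell short on that scale (0.856 in HL60), while CD38 became apart (2.06), both against 0 in K562. THP-1 and the MOLM13-labelled library were apart for 3 (16.8%), all higher in THP-1, namely CD33, CLEC12A and CD70. On coding bases CD38 was apart too, with THP-1 14.2-fold above the MOLM13-labelled library (11.1 to 18.1). THP-1 and HL60 were apart for 3 (10.3%), with CD38 and CD70 higher in THP-1 and CLEC12A higher in HL60. On coding bases CD44 was apart for THP-1 and HL60 too, at 37.1 scaled coverage in THP-1 and 5.45 in HL60. The MOLM13-labelled library and HL60 were apart for 4 (16.9%), with CD44 and CD38 higher in the MOLM13-labelled library and CD33 and CLEC12A higher in HL60. The CD38 difference of that last pair rests on the 594-base transcript described above, and on coding bases the MOLM13-labelled library was 1.02-fold HL60. These pairs share libraries and are not independent.

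Other antigens of interest in leukemia, 30 in all, included 23 with enough bases, of which 10 were called high or low, where 14.1% of all genes tested were. In all 4 lines 6 were listed at 0. The median span of the 23 over the lines was 2.66 log2 units. CD96 at 517 scaled TPM, CD34 at 194 and CD7 at 16.3 were high in the MOLM13-labelled library, LILRB4 at 29.4 and CD74 at 281 were high in THP-1, and SIGLEC7 at 3.77 was high in HL60. The other 4, CD52, CD37, CD82 and CD244, were low in K562, where they were listed at 0. IL3RA and CD99 were listed at 0 in all lines, which, as for RPS27A and HMGB1 above, is not a measured absence.

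The protein-coding genes with the pattern nearest to each antigen were found by Euclidean distance between centred log2 levels over the 4 lines, a description over 4 points. Nearest to CD33 was GAPT (distance 0.167), to CLEC12A C1orf162 (0.813), to CD47 MAZ (0.0266) and to CD44 FZD6 (0.202). Nearest to CD38 was PLPP5 (0.0989), to CD70 IFITM3 (0.379), to HAVCR2 BCL11A (0.180) and to PTPRC RGS18 (0.159). The next nearest was STARD4 for CD33, CYBB for CLEC12A, UQCC1 for CD47, TRPS1 for CD44, FTH1 for CD38, MS4A6A for CD70, TSPAN15 for HAVCR2 and HEBP1 for PTPRC. The CD38 matches use its TPM in the MOLM13-labelled library, of which 98.6% sat on the 594-base transcript. FTH1 was itself listed at 0 in K562, which is not a measured absence.

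Whether footprints of the antigens kept to coding bases was not resolved. The files give 1 mean per exon, and all 3′ untranslated bases of the 8 coding transcripts, and all 5′ ones of 7 of them, lie in an exon that also holds coding bases. Those exons gave medians of 0.128 (3′) and 1.14 (5′) relative to coding coverage over 24 combinations of a gene and a line, and the first and last coding exons of the profiles are means of the same kind.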

How the data were processed

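Ribosome-protected fragments of 4 leukemia lines, 1 library each, were analysed. The submitters' processing notes name Trim Galore 0.6.6, Bowtie2 2.4.2, STAR 2.7.8a, StringTie 2.1.5 and hg38. Per the file headers, the authors ran StringTie on read 1 against GENCODE release 37 without assembling new transcripts and without a strand option. The deposited values used were TPM per transcript and coverage (aligned bases per base) per transcript and exon.

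TPM was summed per gene ID and divided by the median ratio over 3751 genes with at least 10 TPM in all lines (factors 0.837, 1.01, 1.12 and 1.05 for K562, THP-1, the MOLM13-labelled library and HL60). Aligned bases are coverage times length. Coding regions came from GENCODE release 29 (same build, 58361 of 60607 genes matched), using the APPRIS principal transcript, and coding coverage was scaled over 5602 genes. A pseudocount of 1 was added before log2. Genes needed 600 aligned bases, about 20.7 footprint equivalents. Python 3 scripts with NumPy, pandas, SciPy and Matplotlib were used, and the size rule was tested on simulated data. Named genes are the 8 antigens, up to 4 genes of each list with the largest distance between the top line and the next, and the 2 nearest in pattern. The other partners, markers and antigens named were chosen after their values were seen. The members and lists were chosen with earlier results of these data known. Copies on the Y pseudoautosomal region were left out. A further variable exon of PTPRC is not reported here.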

Additional observations from a re-analysis of the deposited data

How the results depend on the processing

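Of the 4 antigens called in 1 line, the count was 3 to 6 under the other settings and 7 with a log2 difference of 1 (37.6% of all genes). Using coding bases only, chosen after seeing the data, gave 4 (11.3% of all genes), with CD38 called in place of CD33. The low call of CD33 in K562 was also lost with summed coverage, a pseudocount of 5, a log2 difference of 3, a higher minimum of bases or zeros left out. With zeros left out 5 genes were called, and 3 of the 4 calls were kept. The 24 of 48 pair combinations became 11 of 29 with values listed at 0 left out and 12 of 24 without the MOLM13-labelled library. With all 48 kept, the count was 16 with a pseudocount of 5 or a log2 difference of 3. It was 34 with a log2 difference of 1 and 21 to 29 under the other settings, with 22 on coding bases. Leaving out K562, THP-1 or HL60, also chosen after seeing the data, gave 10 to 13 of 24, fewer by construction. Except where a percentage is stated, the share of all genes under these settings is not given. The changed counts therefore describe the settings and are not results about the antigens. Levels moved by at most 1.20-fold with deposited TPM and 1.14-fold with TPM rescaled over protein-coding genes, where the MOLM13-labelled library passed THP-1 for CD38.

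With the highest-TPM transcript alone, ratios of PTPRC exons A and C and of CD44 variable exons became 0 in THP-1 and HL60. That transcript lacks them, and for CD44 in HL60 it was one annotated as retaining an intron, not the standard form. PTPRC exon A in the MOLM13-labelled library became 1.65, CD44 there 0.0911 and CD33 exon 2 in HL60 1.87. Against flanking exons, PTPRC exon A became 2.08 in the MOLM13-labelled library and 0.00794 in HL60, exon C 0.0100 in HL60, CD44 in the MOLM13-labelled library 0.0935, and CD33 exon 2 in HL60 1.07. Other causes were not tested. No paired analysis was possible because each line had 1 library. Depth limits HAVCR2 most (24.1 to 86.7 footprint equivalents where covered), with CD70 in HL60 (61.4), then CD33 (92.8) and CD38 (112) in the MOLM13-labelled library.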
